A study of Mus musculus with 6 samples.

Results

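Immune checkpoint receptors and their ligands were followed in single cells from the YUMM2.1 mouse melanoma model, with 10 genes chosen by symbol out of the 31053 in the count tables. The 5 receptors were Pdcd1 (PD-1), Lag3, Havcr2 (TIM-3), Ctla4 and Tigit, and the 5 ligands were Cd274 (PD-L1), Pdcd1lg2 (PD-L2), Cd80, Cd86 and Pvr. All 10 were found in both libraries. The libraries were labelled Empty vector (EV) and Bmal1 WT, each from the YUMM2.1 cell line with 3 replicates tagged by hashtag antibodies (h1, h7 and h8 for EV, h3, h5 and h9 for WT) and pooled in 1 droplet channel per group. Bmal1 (Arntl) is the transcription factor that, with Clock, drives the circadian clock, and in the study EV and WT name lentiviral constructs, which were put both into native YUMM2.1 cells and into aC3, a single Bmal1-null clone of them. The labels here give YUMM2.1 alone. The labels give neither age, time point nor treatment, and group and channel cannot be told apart.

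Checkpoint receptors sit on T and NK cells and dampen their activation when bound by ligands on antigen-presenting, tumour or stromal cells. PD-1 binds PD-L1 and PD-L2, CTLA-4 competes with the costimulatory receptor CD28 for CD80 and CD86, and TIGIT binds PVR (CD155), which the activating receptor CD226 also binds. LAG-3 binds MHC class II and TIM-3 has several ligands, and in tumours these receptors accumulate on chronically stimulated CD8 T cells and on regulatory T cells. Messenger RNA was measured, not protein on the cell surface.

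The EV library held 34232927 UMIs (unique molecules) in 4147 barcodes and the WT library 39561569 in 2785 barcodes. After filtering, 3978 EV cells with a median of 5094 UMIs and 2386 WT cells with a median of 7570.5 were kept, and 3222 and 1618 of them carried a single hashtag. Of the others, 388 EV and 666 WT cells carried no hashtag, and 368 and 102 carried several and may be doublets. Values by replicate use cells with a single hashtag, whereas shares of cells and UMI counts not given by replicate use all kept cells of a class. The libraries shared 5 barcodes, 3 of them among kept cells. Although the labels give a melanoma line as the source, most cells were leukocytes, and the melanoma-like class was 108 EV and 326 WT cells in which Mlana and Tyrp1, both pigment-cell genes, had no UMI. Cells were grouped without the 10 checkpoint genes into classes called "-like" after their markers, of which 21 are reported, and 384 EV and 408 WT cells were left unnamed. Not reported alone are B cell-like (7 EV and 4 WT cells), mast cell or basophil-like (28 and 20) and other T-cell-like cells (22 and 14). The last of these enter the pool of all T-cell-like cells. Levels are given in CPM, the UMIs of a gene over all UMIs of that class in that replicate, scaled to 1000000, for replicates with at least 10 cells of the class, and a mean ± SD by class is over the replicates of both groups unless a group is named. Since bulk sums of a class are used, fewer transcribing cells and less RNA per cell cannot be told apart from CPM alone.

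Pdcd1, the receptor for PD-L1 and PD-L2 (GRCm38, chr1:94038305-94052553, minus strand), was highest in the Cxcr6 CD8 T-cell-like class, cells led by Cd8a, Cxcr6 and Tox. There it measured 658, 652 and 474 CPM in EV h1, h7 and h8 and 438 and 665 CPM in WT h3 and h9, while WT h5 had fewer than 10 such cells. The groups overlapped. Over the 5 replicates the mean was 577 ± 112 CPM (SD), and the next class, cycling T-cell-like, at 294 ± 116 (n = 4), lay below it by more than the larger SD. Regulatory T-cell-like cells (227 ± 72.4 CPM, n = 6) and the Il17a innate-like T-cell-like class, found in EV only (201 ± 125, n = 2), were not separated from the cycling class by that measure. A Pdcd1 UMI was found in 86.6% of 179 Cxcr6 CD8 T-cell-like EV cells and in 94.3% of 53 WT cells. In Gzma NK-cell-like cells, by contrast, 0.722% of 693 EV cells and 0.422% of 237 WT cells had a UMI. In the melanoma-like class, 7 UMIs were counted in EV, in 2 cells of h1, and 0 in WT. There, 0 of 326 cells allows up to 0.920% of cells with a UMI and sets no limit on cells that express the gene.

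Ctla4, which takes CD80 and CD86 away from CD28 (chr1:60887000-60915832, plus strand, overlapping the pseudogene Rpl18-ps1 on the same strand), was highest in regulatory T-cell-like cells, defined by Foxp3, Il2ra and Ikzf2. The EV replicates measured 2123, 1549 and 2639 CPM and the WT replicates 1924, 1588 and 1552 CPM. These overlapped, and the mean of 1896 ± 433 CPM (n = 6) exceeded that of the Il17a innate-like class (965 ± 412, n = 2) by more than the larger SD. Below it, Cxcr6 CD8 T-cell-like cells (815 ± 215, n = 5) and conventional CD4 T-cell-like cells (734 ± 297, n = 6) were not separated from each other or from the Il17a class. NK-cell-like cells also held Ctla4. The Gzmc class measured 184, 152 and 256 CPM in the EV replicates and 135, 34 and 193 CPM in those of WT, with overlap. The Gzma class was lower, with 61, 54 and 54 CPM in the EV replicates and 42, 35 and 7 CPM in those of WT. Melanoma-like cells measured 4.45 CPM in EV and 0.508 CPM in WT.

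Lag3, an inhibitory receptor for MHC class II (chr6:124904361-124911705, minus strand), was ordered differently in the groups. In EV, regulatory T-cell-like cells (515 ± 113 CPM, n = 3) exceeded Cxcr6 CD8 T-cell-like cells (334 ± 54.2, n = 3) by more than the larger SD, and plasmacytoid dendritic-cell-like cells (277 ± 102, n = 3) were not separated from the latter. In WT, the Cxcr6 CD8 class (277 ± 109, n = 2) exceeded regulatory T-cell-like cells (115 ± 72.01, n = 3) by more than the larger SD. The Cxcr6 CD8 class measured 371, 272 and 360 CPM in EV h1, h7 and h8 and 355 and 200 CPM in WT h3 and h9. Of the 48 plasmacytoid cells in EV, 79.2% had a Lag3 UMI, with 369, 168 and 294 CPM by replicate, and the 10 plasmacytoid cells in WT together held 41 UMIs (304 CPM). In that class Pdcd1 had 1 UMI in EV and none in WT, and Tigit none in either. A Lag3 UMI was also found in 6.48% of EV and 5.83% of WT melanoma-like cells, at only 1.54 and 1.24 CPM, since these cells were deep (median 29562 and 41039 UMIs).

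Havcr2, the TIM-3 receptor of T cells and of myeloid cells (chr11:46454935-46481255, plus strand), had its highest levels outside the T and NK classes. Classical monocyte-like cells measured 144, 399 and 299 CPM in EV and 277, 342 and 171 CPM in WT. Mgl2 Epcam dendritic-cell-like cells followed with 201, 251 and 233 CPM in EV and 210 and 140 CPM in WT h3 and h5, and cDC1-like cells with 208 and 231 CPM in EV h1 and h8 and 126, 169 and 201 CPM in WT. None of the top 5 classes differed from the next by more than the larger SD. Among T cells, the Cxcr6 CD8 class measured 66, 18 and 152 CPM in EV and 240 and 71 CPM in WT, a wide spread with overlapping groups. Tigit, the PVR receptor (chr16:43648867-43664146, minus strand), was sparse, with 152 UMIs in EV and 52 in WT over all kept cells. Its highest class was again Cxcr6 CD8 T-cell-like (18.3 ± 3.74 CPM, n = 5), followed by Gzmc NK-cell-like cells (11.4 ± 6.70, n = 6). No Tigit UMI was found in melanoma-like or fibroblast-like cells of either group.

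**Figure D1:**
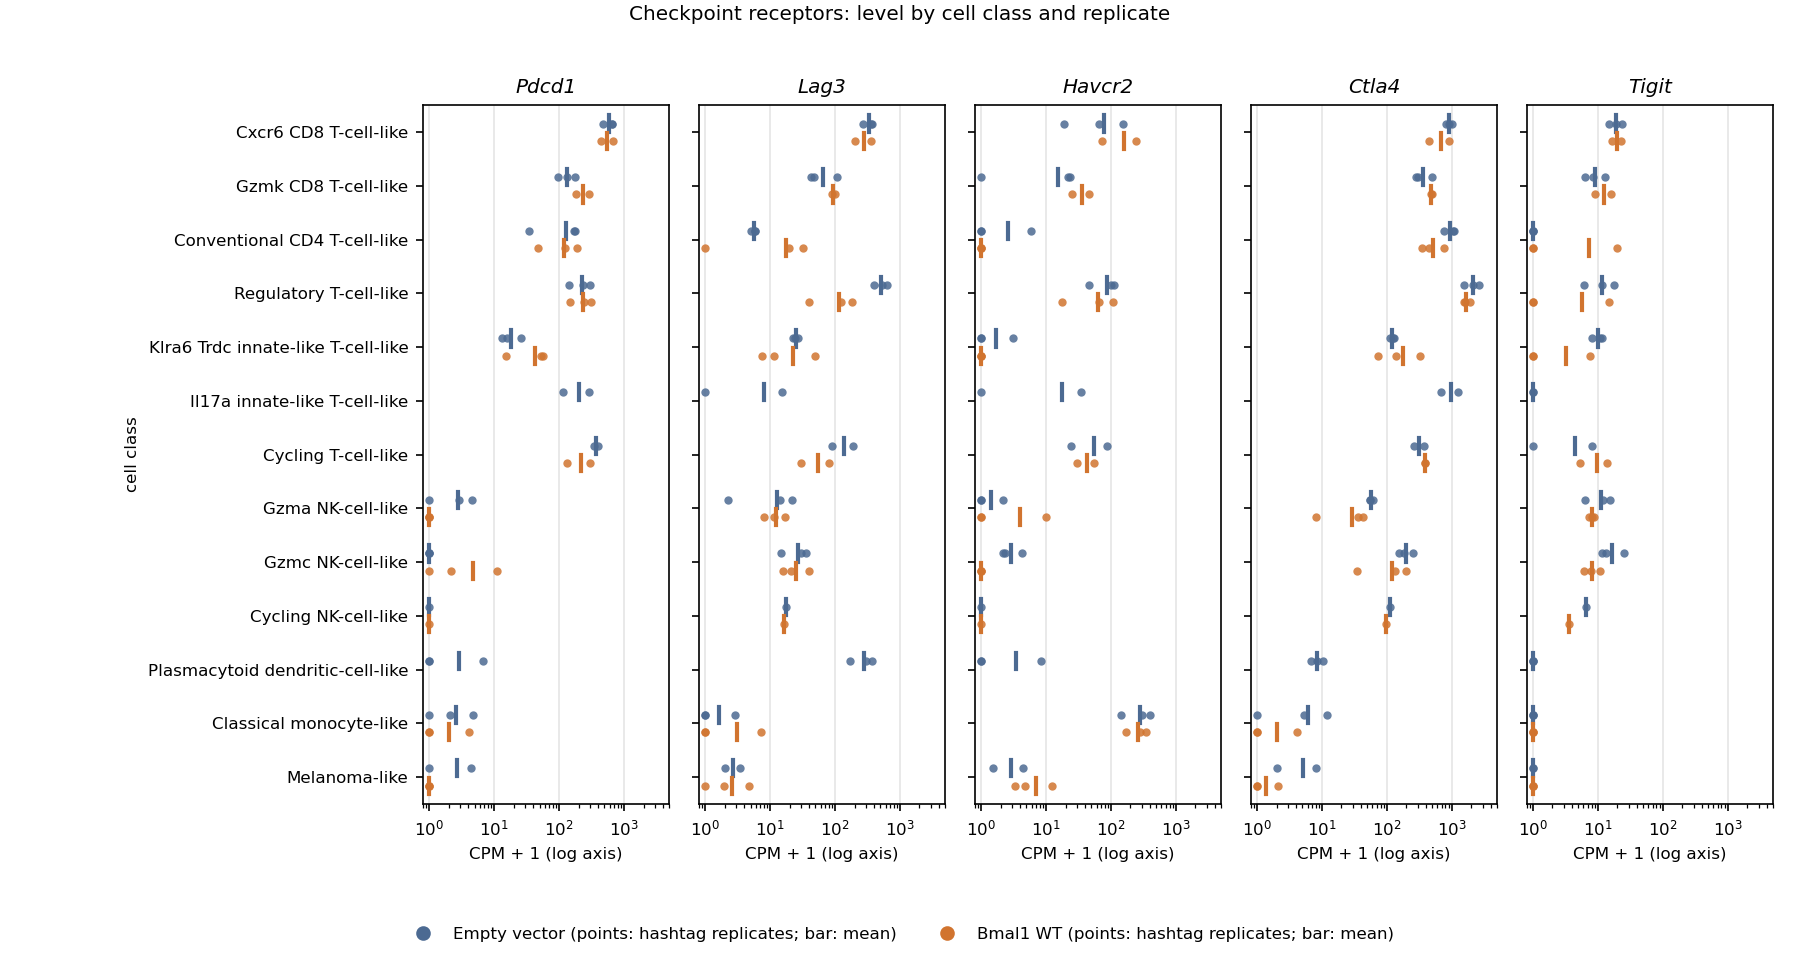
Level of the 5 receptors (CPM + 1, log axis) in a choice of cell classes (rows), with 1 point per hashtag replicate, EV in blue and WT in orange, and a bar at each group's mean. Pdcd1 peaks in Cxcr6 CD8 T-cell-like cells (577 ± 112 CPM), Ctla4 in regulatory T-cell-like cells (1896 ± 433 CPM), and Havcr2 in classical monocyte-like cells (272 ± 98.2 CPM).

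Several receptors were read out in the same cells of the Cxcr6 CD8 class. Both Pdcd1 and Lag3 were found in 113 of 179 EV cells (63.1%) and in 35 of 53 WT cells (66.0%), and at least 3 of the 5 receptors in 67.6% and 66.0%. These shares depend on depth, and cells with several hashtags or none were not left out. After each cell was thinned to 2000 UMIs, both genes were found in 30.9% of 162 EV and 35.3% of 51 WT cells. Lag3 was then found in 45.5% of EV cells with a Pdcd1 UMI against 46.9% of all EV cells of the class and, in WT, in 51.4% against 45.1%.

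Cd274, the PD-L1 ligand (chr19:29367455-29388095, plus strand, opposite AC119228.1), was highest in Arg1 Nos2 monocyte-macrophage-like cells and in mature dendritic-cell-like cells, the class marked by Ccr7 and Fscn1. The former measured 608 and 714 CPM in EV h1 and h8 and 392, 423 and 455 CPM in WT, so every WT replicate lay below both EV replicates. The mature dendritic class measured 466, 601 and 515 CPM in EV and 444, 495 and 508 CPM in WT, with overlap. In EV the Arg1 Nos2 class (661 ± 74.6 CPM, n = 2) exceeded mature dendritic-cell-like cells (527 ± 68.0, n = 3), and in WT it lay below them (424 ± 31.6 against 482 ± 34.0, n = 3 each), each time by more than the larger SD. Over both groups the means were 519 ± 137 (n = 5) and 505 ± 54.0 CPM (n = 6), and both exceeded the next class, the Il17a innate-like T cells of EV (258 ± 191, n = 2). Melanoma-like cells were low, at 18 and 10 CPM in EV h1 and h8 and 39, 13 and 17 CPM in WT, although 32.4% of EV and 23.0% of WT cells had at least 1 UMI at their depth.

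Pdcd1lg2, the PD-L2 ligand that neighbours Cd274 (chr19:29410919-29471161, plus strand, opposite A930007I19Rik), was highest in mature dendritic-cell-like cells alone. The EV replicates there measured 136, 208 and 258 CPM and the WT replicates 207, 140 and 187 CPM. The mean of 189 ± 45.9 CPM (n = 6) exceeded that of Mgl2 Epcam dendritic-cell-like cells (117 ± 36.5, n = 5) by more than the larger SD. In Arg1 Nos2 cells, where Cd274 was highest, no replicate of Pdcd1lg2 rose above 20 CPM, and in melanoma-like cells the library level was 0.171 CPM in EV and 1.07 CPM in WT. T cells held some of it, with 50, 60 and 61 CPM in EV and 61, 74 and 50 CPM in WT regulatory T-cell-like cells.

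Cd80 and Cd86 are the ligands shared by CD28 and CTLA-4. Cd80 (chr16:38455561-38496335, plus strand) measured 325, 377 and 405 CPM in EV and 401, 519 and 409 CPM in WT mature dendritic-cell-like cells. Its mean there (406 ± 63.6, n = 6) exceeded classical monocyte-like cells (170 ± 65.8, n = 6) by more than the larger SD. Cd86 (chr16:36603869-36666081, minus strand) was spread more evenly over myeloid classes. It measured 181, 316 and 281 CPM in EV and 230, 389 and 205 CPM in WT mature dendritic-cell-like cells (267 ± 77.7, n = 6). Mgl2 Epcam dendritic-cell-like cells (245 ± 45.5, n = 5) were not separated from them. Outside the myeloid classes Cd86 fell to 2.07 CPM in EV and 0.249 CPM in WT fibroblast-like cells and to 0.343 and 0.339 CPM in melanoma-like cells.

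Pvr, the ligand of TIGIT and CD226 (chr7:19903578-19921160, minus strand, opposite Gm16184 and Gm16251), was found in the non-immune classes and, at like levels, in myeloid classes. Fibroblast-like cells measured 48 and 94 CPM in EV h1 and h8 and 146 and 50 CPM in WT h3 and h9. Melanoma-like cells measured 45 and 56 CPM in EV h1 and h8 and 84, 66 and 79 CPM in WT, and held 25.6% of all Pvr UMIs in EV and 58.2% in WT, where they were 13.7% of the kept cells against 2.71%. Classical monocyte-like cells were at a like level, with 86, 47 and 76 CPM in EV and 77, 109 and 61 CPM in WT, and neighbours in the order from fibroblast-like (84.4 ± 45.9 CPM, n = 4) to Arg1 Nos2 cells (64.6 ± 30.2, n = 5) did not differ beyond their spread.

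**Figure D2:**
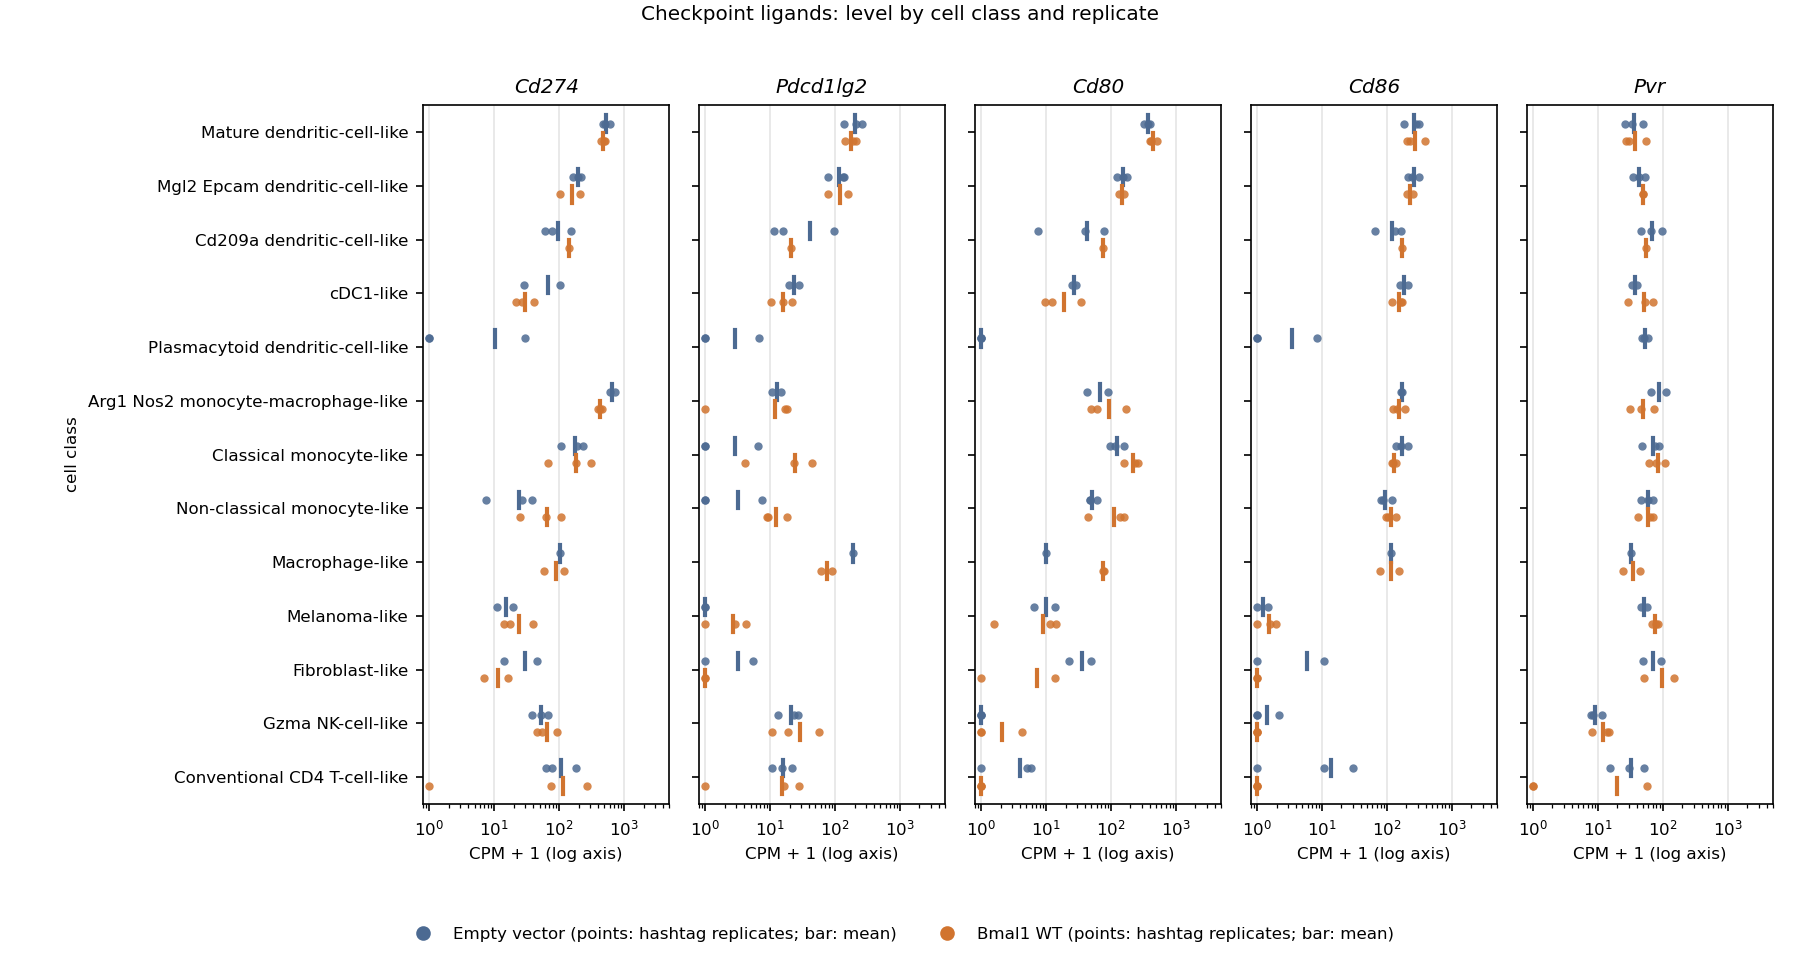
Level of the 5 ligands (CPM + 1, log axis) in a choice of cell classes (rows), drawn as for the receptors: 1 point per hashtag replicate, EV in blue, WT in orange, bars at group means. Cd274, Pdcd1lg2, Cd80 and Cd86 are high in mature dendritic-cell-like cells, Cd274 also in Arg1 Nos2 monocyte-macrophage-like cells (519 ± 137 CPM), and Pvr lies between 30 and 146 CPM in the melanoma-like, fibroblast-like and Arg1 Nos2 classes.

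For each member, the 3 genes whose levels followed it most closely over the 20 classes with at least 50 cells were taken from 12725 genes by Pearson's r of log2(CPM + 5). Since every class comes from the same pair of libraries, these are descriptions. Pdcd1 followed Themis (r = 0.956), a T-cell receptor signalling gene, then Cxcr6 and Cd3e, and Ctla4 followed Inpp4b, Ubash3a and Icos. Tigit followed Ifng (r = 0.963), the interferon-gamma gene, and Sh2d2a and Gimap7. Lag3 followed Dkkl1 (r = 0.867), Foxred2 and Klc3, and Havcr2 followed Sh3bgrl, Sem1 and Gm2a. Cd274 followed Gbp5 (r = 0.803), an interferon-induced GTPase, with Mxd1 and Pfkfb3. Pdcd1lg2 followed Nr4a3 (r = 0.893), Tspoap1 and Arrb2, and Cd80 followed Rap2a, Cd40, itself a receptor of dendritic-cell activation, and Rac1. Cd86 followed the myeloid gene Aif1 (r = 0.944), Lsr and Tbc1d9, and Pvr followed Ppard (r = 0.918), Usp6nl and Zfp821. Among the members, Cd80 and Cd86 were alike (r = 0.851, n = 20 classes), as were Pdcd1 and Ctla4 (r = 0.830), whereas Cd274 and its neighbour Pdcd1lg2 reached r = 0.554.

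The promoters of 7 of the 10 genes were held in the RefSeq table (GRCm38.p6), as the 250 bases before the annotated start. The E-box CACGTG, the palindrome that Bmal1 and Clock bind, was in none of the 7 and in 6.02% of all 32851 promoters, searched on both strands. The interferon-gamma activated site TTCNNNGAA (7.02% of promoters) and the interferon-stimulated response core (2.98%) were in none either. The AP-1 motif TGANTCA (6.75%) was in Cd80 and Havcr2, and the NF-kappaB motif (7.25%) in Pdcd1lg2. No match overlapped another in these promoters. A match or its absence says only whether these letters stand in this window. The 3 promoters with a match are shown because they belong to 2 ligands highest in mature dendritic-cell-like cells and to the receptor highest in myeloid cells, with the match in capitals (NF-kappaB in the first, AP-1 in the others), 5′ to 3′ on the plus strand at chr19:29410669-29410918, chr16:38458683-38458932 and chr11:46454681-46454930.
Pdcd1lg2: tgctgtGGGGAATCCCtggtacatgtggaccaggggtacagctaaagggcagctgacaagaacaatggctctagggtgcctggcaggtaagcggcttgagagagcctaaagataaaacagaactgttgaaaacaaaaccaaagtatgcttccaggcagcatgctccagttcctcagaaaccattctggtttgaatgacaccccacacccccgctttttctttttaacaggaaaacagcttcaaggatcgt
Cd80: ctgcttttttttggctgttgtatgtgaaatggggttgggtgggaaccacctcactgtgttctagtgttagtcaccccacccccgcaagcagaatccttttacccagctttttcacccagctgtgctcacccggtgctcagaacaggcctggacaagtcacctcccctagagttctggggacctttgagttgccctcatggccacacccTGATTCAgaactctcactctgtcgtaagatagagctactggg
Havcr2: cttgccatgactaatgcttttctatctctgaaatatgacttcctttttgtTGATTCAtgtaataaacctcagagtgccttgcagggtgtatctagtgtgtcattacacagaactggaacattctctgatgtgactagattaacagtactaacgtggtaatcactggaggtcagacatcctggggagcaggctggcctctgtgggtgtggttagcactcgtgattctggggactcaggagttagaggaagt

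Between the groups, Lag3 was lower in WT than in EV in the class called regulatory T-cell-like. At full depth, which was higher in WT, a Foxp3 UMI was found in 41.7% of its EV and 58.6% of its WT cells. In the cells with a Foxp3 UMI the Lag3 replicates overlapped. No other checkpoint gene changed past the threshold in any of the 16 classes with enough replicates. EV h1, h7 and h8 measured 523, 624 and 398 CPM of Lag3 (200, 178 and 217 UMIs), and WT h3, h5 and h9 measured 182, 124 and 39 CPM (78, 20 and 7 UMIs). Every WT replicate lay below every EV replicate, with means of 115 ± 72.01 against 515 ± 113 CPM (SD, n = 3 each). The log2 fold change of WT against EV was -2.06 ± 0.36 (SE), with an adjusted p of 0.0467 by edgeR's quasi-likelihood test with Benjamini-Hochberg adjustment over 7141 genes. Of those genes 8 were called (0.112%), all lower in WT. Of the 86 pairs of member and class that passed the filter of 30 UMIs this was the only 1 called (1.16%), against 49 of 106201 gene and class pairs in the background (0.0461%), and 74 pairs fell below the filter. The call was lost without EV h7, without WT h3 and without WT h5. The log2 fold change stayed between -2.67 and -1.69 when any of the 6 replicates was omitted.

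The share of class cells with a Lag3 UMI depended on depth. At full depth it was 47.2% of 163 EV cells (median 5143 UMIs) and 45.7% of 70 WT cells (median 6860), and after thinning to 2000 UMIs it was 35.0% of 143 EV and 18.8% of 69 WT cells. The class also held cells in which Foxp3 was not read out, and it was split by a Foxp3 UMI after these values had been seen. At full depth, cells with a Foxp3 UMI were 68 of 163 (41.7%) in EV and 41 of 70 (58.6%) in WT. This share too depends on depth, and it was not compared after thinning. It therefore does not show that the share of regulatory T cells differed between the groups. The Lag3 level of the cells with a Foxp3 UMI was 129 CPM (95% exact Poisson interval 103 to 160) in EV and 109 CPM (83.6 to 139) in WT. By replicate these cells measured 76.5, 257 and 81.2 CPM in EV and 166, 56.8 and 40.6 CPM in WT, with overlap. Cells without a Foxp3 UMI measured 782 CPM (717 to 852) in EV and 214 CPM (155 to 288) in WT. There EV h1, h7 and h8 stood at 1350, 1017 and 595 CPM (16, 21 and 48 cells) and WT h3 and h5 at 217 and 252 CPM (18 and 8 cells), and the single such cell of WT h9 held none. In EV, the highest 10 of these cells held 384 of their 523 Lag3 UMIs (73.4%), and the highest cell held 99 against 6 in WT. At full depth a Lag3 UMI was found in 50.5% of the EV and 51.7% of the WT cells without a Foxp3 UMI. In the same cells Pdcd1 measured 346 CPM (302 to 393) in EV and 373 CPM (294 to 468) in WT, and Ctla4 1539 CPM (1447 to 1636) and 1364 CPM (1207 to 1536). Intervals cover counting error only. At a finer clustering (resolution 2 in place of 1) the Foxp3-led cells formed a cluster of 64 EV and 26 WT cells. A cluster of 87 EV and 30 WT cells led by Penk, Ccl1, Il4 and Il13, cytokine genes of type 2 helper cells among them, stood apart. By its markers that cluster was named conventional CD4 T-cell-like, not regulatory. The summed regulatory T-cell markers, 5 of 5 found in both groups, measured 3004 CPM in EV and 3089 CPM in WT, and the part of the class's makeup in the Lag3 difference was not tested.

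**Figure D3:**
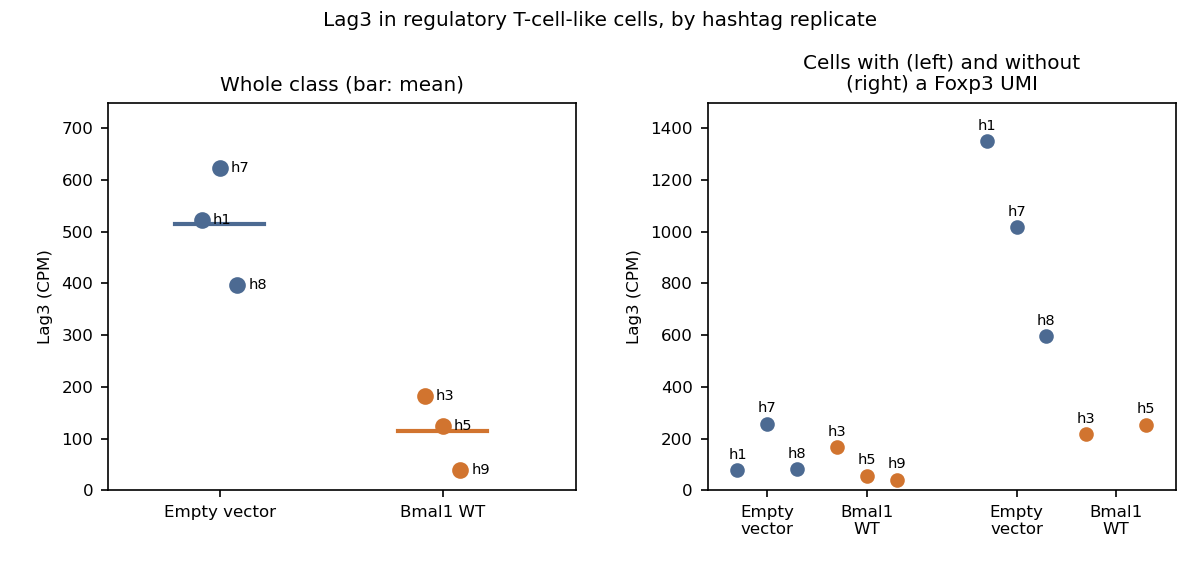
Lag3 level (CPM, linear axis) in regulatory T-cell-like cells, 1 point per hashtag replicate. On the left, the whole class with bars at the group means (515 ± 113 CPM in EV, 115 ± 72.01 in WT), and on the right, the same replicates split into cells with and without a Foxp3 UMI, where the EV replicates without Foxp3 reach 595 to 1350 CPM (WT h9, with 1 such cell, is not drawn).

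Over all T-cell-like cells pooled, Lag3 measured 210, 170 and 166 CPM in EV and 117, 110 and 72 CPM in WT, without overlap (log2 fold change -0.84 ± 0.17, adjusted p = 0.0429 by edgeR's quasi-likelihood test). This call was lost without EV h1, without EV h7 and without each WT replicate (log2 fold change -0.97 to -0.69), and with each cell weighed the same the change was -0.30 (adjusted p = 0.534). In that pool 106 of 9984 genes were called (1.06%), 39 of them lower in WT (0.391%). With the regulatory T-cell-like class left out, an alternative added after the data were seen, the change was -0.08 (adjusted p = 0.944). In Cxcr6 CD8 T-cell-like cells the change was -0.30 ± 0.28 (adjusted p = 0.9501), in Gzmk CD8 T-cell-like cells 0.85 ± 0.41 (adjusted p = 0.961) and in cycling T-cell-like cells -1.23 ± 0.48 (adjusted p = 0.707). Over the 4 pooled classes (T, NK, dendritic, macrophage or monocyte) Lag3 in T cells was the only call among 32 pairs (3.13%, background 0.362%). An unadjusted p below 0.05 was reached by 4 of the 32 pairs (12.5%, background 14.4%), and the replicates did not overlap in 4 (12.5%, background 20.4%), all lower in WT.

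Pdcd1 and Ctla4 did not pass the threshold in any class. Pdcd1 in Gzmk CD8 T-cell-like cells measured 94, 130 and 173 CPM in EV and 183 and 288 CPM in WT h3 and h5. The WT replicates lay above the EV replicates, with a log2 fold change of 0.88 ± 0.31 and an adjusted p of 0.961. In cycling T-cell-like cells the order was the opposite, at 397 and 348 CPM in EV h1 and h8 and 131 and 300 CPM in WT h3 and h5 (-0.76 ± 0.33, adjusted p = 0.724). In the Cxcr6 CD8 class, where Pdcd1 was highest, the change was -0.11 ± 0.25 (adjusted p = 0.986). Ctla4 in conventional CD4 T-cell-like cells measured 1075, 754 and 1029 CPM in EV and 442, 759 and 345 CPM in WT. The ranges met at EV h7 and WT h5 (-0.86 ± 0.23, adjusted p = 0.186), and DESeq2 called this gene (adjusted p = 0.0386). In regulatory T-cell-like cells the change in Ctla4 was -0.32 ± 0.19 (adjusted p = 0.692), and in Gzma and Gzmc NK-cell-like cells it was -0.67 ± 0.29 and -0.65 ± 0.28 (adjusted p = 0.499 and 0.472). Tigit passed the filter only in the NK classes and in pooled cells, with a log2 fold change of -0.59 ± 0.61 in the Gzma class (adjusted p = 0.840). In the Gzmc class it measured 12.3, 10.7 and 24.04 CPM in EV and 6.80, 9.72 and 5.09 CPM in WT, without overlap (-1.09 ± 0.58, adjusted p = 0.571). In all NK-cell-like cells the groups did not overlap either (-0.88 ± 0.43, adjusted p = 0.446).

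Ctla4 was also counted in dendritic-cell-like classes, at 36 and 52 CPM in EV h1 and h8 and 11, 0 and 2 CPM in the WT replicates of cDC1-like cells. In the Mgl2 Epcam class it was at 25, 1 and 77 CPM in EV and 0 and 4 CPM in WT. T-cell markers moved with it. Their summed level was 89.3 CPM in EV and 16.2 CPM in WT cDC1-like cells (5.93 to 155 over EV replicates, 0 to 37.6 over WT), and 111 against 4.04 CPM in the Mgl2 Epcam class (12.03 to 169, and 3.79 to 8.25). All 8 T-cell markers were found in EV in both classes, whereas Cd3e, Cd3g and Trac were at 0 in WT cDC1-like cells, and Cd3e, Cd3g, Trbc2 and Cd5 in the WT Mgl2 Epcam class. The part of T-cell RNA in these Ctla4 counts was not tested.

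The Havcr2 difference with the smallest unadjusted p was in non-classical monocyte-like cells, at 77, 92 and 102 CPM in EV and 190, 148 and 224 CPM in WT. The groups did not overlap, and the log2 fold change of 1.09 ± 0.27 had an adjusted p of 0.420. In cDC1-like cells it was -0.41 ± 0.24 (adjusted p = 0.691). In melanoma-like cells, 12 UMIs in EV stood against 161 in WT, and 5.56% of 108 against 15.03% of 326 cells had a UMI. The levels were 3 and 0.5 CPM in EV h1 and h8 and 4, 11 and 2 CPM in WT h3, h5 and h9, which overlap (1.67 ± 0.95, adjusted p = 0.984). The 49 WT cells with a UMI held a median of 86059 UMIs in all, against 33682 in the 277 cells without. The median of macrophage-marker UMIs was 0 in the cells with and in the cells without a Havcr2 UMI, so it does not set them apart.

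Among the ligands no pair was called. Cd274 in Arg1 Nos2 cells was lower in every WT replicate, with a log2 fold change of -0.65 ± 0.23 and an adjusted p of 0.539. In Cxcr6 CD8 T-cell-like cells it ran the other way, at 58, 18 and 21 CPM in EV and 115 and 79 CPM in WT (1.20 ± 0.43, adjusted p = 0.683). In non-classical monocyte-like cells it measured 26, 7 and 38 CPM in EV and 105, 61 and 24 CPM in WT (1.54 ± 0.53, adjusted p = 0.601). In regulatory T-cell-like cells it measured 71, 74 and 83 CPM in EV and 33, 56 and 61 CPM in WT, without overlap (-0.71 ± 0.33, adjusted p = 0.576). In cDC1-like cells it measured 104 and 28 CPM in EV h1 and h8 and 39, 20 and 26 CPM in WT (-1.25 ± 0.49, adjusted p = 0.525), and without EV h1 the change was 0.064. In mature dendritic-cell-like cells the change was -0.13 ± 0.17 (adjusted p = 0.959). Cd80 in classical monocyte-like cells measured 94, 114 and 159 CPM in EV and 234, 262 and 158 CPM in WT, where WT h9 fell just inside the EV range (0.82 ± 0.29, adjusted p = 0.420). Pvr in melanoma-like cells was higher in each WT replicate than in both EV replicates (0.58 ± 0.23, adjusted p = 0.984). Pdcd1lg2 and Cd86 stayed within -0.66 to 0.28 and -0.38 to 0.24 in the classes in which they were fitted.

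**Figure D4:**
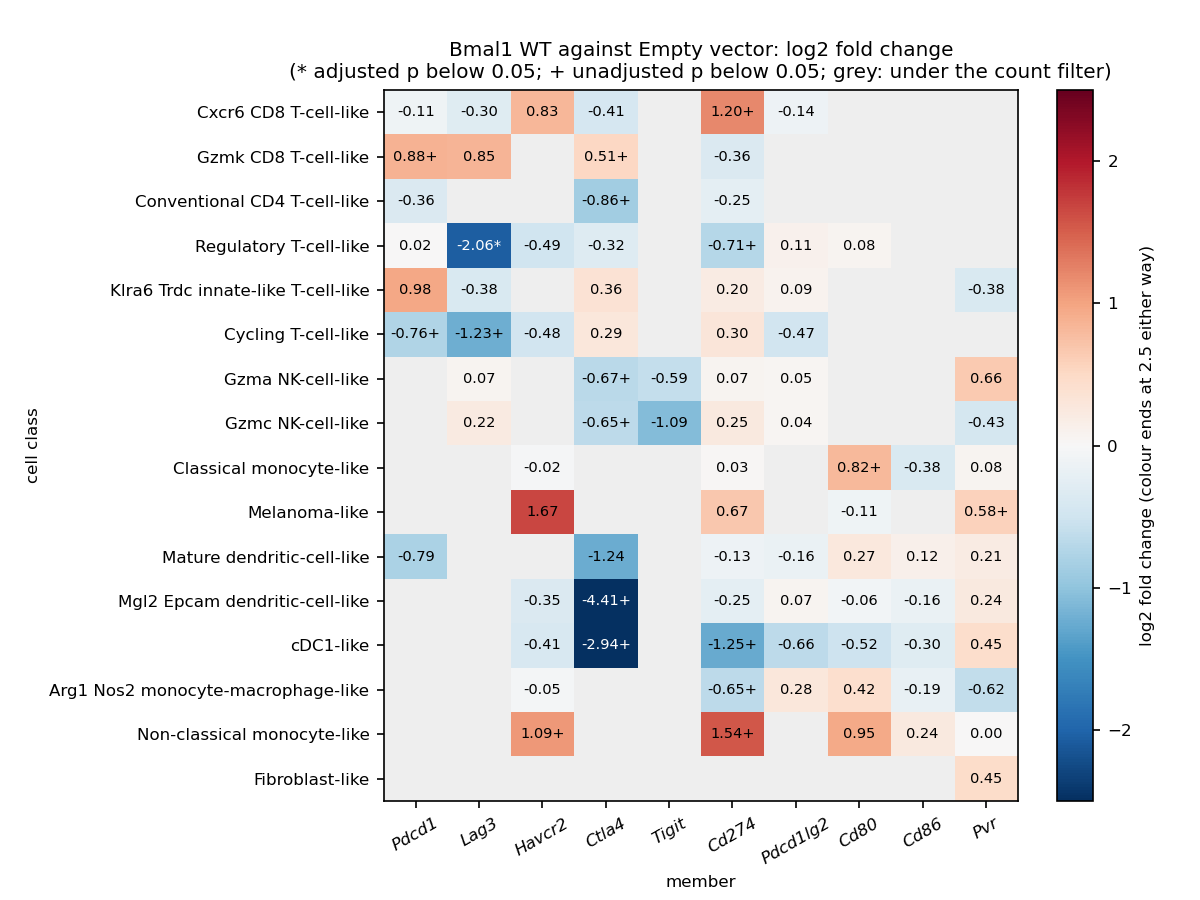
Log2 fold change of WT against EV for each member (columns) in each of the 16 classes fitted (rows), blue lower and red higher in WT, with the colour scale ending at 2.5 either way, grey for pairs under the count filter, + for an unadjusted p below 0.05 and * for an adjusted p below 0.05. The only * is Lag3 in the class called regulatory T-cell-like (-2.06), which also held cells without a Foxp3 UMI. The 2 deepest blue cells are Ctla4 in dendritic-cell-like classes (-4.41 and -2.94), where T-cell markers were lower too.

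Counted together, 45 of the 86 fold changes were below 0 and 41 above, with a median of -0.06, and the median of all genes by class ran from -0.12 to -0.01. An unadjusted p below 0.05 was reached by 18 pairs (20.9%, background 7.49%). Of these, Ctla4 gave 6 and Cd274 gave 5, each in both directions. The Ctla4 pairs included the cDC1-like and Mgl2 Epcam classes, where T-cell markers were lower in WT too. Pairs share genes, replicates and cells, so this percentage does not count independent results. The replicates of the groups did not overlap in 15 pairs (17.4%, background 20.8%), with WT higher in 5 and lower in 10. The share of cells with a UMI was compared in 160 pairs after thinning to 2000 UMIs. An exact permutation test over replicates (two-sided) could not reach 0.05, since its smallest possible p with 3 against 3 is 0.1. It therefore cannot show that no share differed. That smallest value was reached by 5 pairs, and the same was not counted over all genes. For Lag3 in regulatory T-cell-like cells the thinned share was 36.8 ± 7.72% in EV and 15.5 ± 8.88% in WT (exact permutation p = 0.1, adjusted p = 1).

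Around the checkpoint genes, 4 lists of the same pathway were counted in the same fits. Of 17 costimulatory genes, tested in 115 pairs, none was called in a class (median log2 fold change -0.12), and 1 was called lower in a pool. This was Icos, a CD28 family receptor, in all T-cell-like cells, at 475, 726 and 450 CPM in EV and 341, 235 and 324 CPM in WT (-0.87, adjusted p = 0.0489, background 0.391% lower). Icos was among the leading genes of the conventional CD4 and Il17a innate-like classes. These were 229 and 44 of the pool's 1171 EV cells and 54 and 0 of its 379 WT cells. The part of this makeup in the Icos difference was not tested. Of 23 other inhibitory genes (159 pairs, median -0.13), Klrc1, which encodes the inhibitory NKG2A receptor, was lower in cycling T-cell-like cells, at 220 and 254 CPM in EV h1 and h8 and 54 and 45 CPM in WT h3 and h5 (-2.27, adjusted p = 0.0134, 0.067% of genes called lower in the class). Of 14 interferon-gamma response genes (192 pairs, median -0.13) none was called in either direction. Of 14 transcription factors of chronically stimulated T cells (144 pairs, median -0.27), 2 pairs were lower and none higher in WT. These were Nr4a3 in Cxcr6 CD8 T-cell-like cells, at 214, 235 and 159 CPM in EV and 52 and 57 CPM in WT (-1.85, adjusted p = 0.0379, background 0.0327% lower), and Nr4a2 in Gzma NK-cell-like cells, at 655, 669 and 444 CPM in EV and 320, 225 and 338 CPM in WT (-1.01, adjusted p = 0.00954, background 0.0126% lower). Both are orphan nuclear receptors induced by antigen-receptor signalling. Nr4a2 was also lower in all NK-cell-like cells (-0.92, adjusted p = 0.0273, background 0.0425% lower). All adjusted p values are from edgeR's quasi-likelihood test.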

How the data were processed

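Single-cell RNA (10x 3' chemistry) was analysed from 2 libraries, each a channel of 3 hashtag replicates whose origin as separate cultures or animals the labels do not give, so p-values measure only the spread between these samples. The deposited values are raw UMI counts per gene and cell, which the authors made with Cell Ranger 6.1.2 (per the file headers) on mm10 (per the submitters' processing notes). A further library, labelled Bmal1 bHLH, held 3 files identical to those of Bmal1 WT and was not used.

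Cells with at least 200 genes and at most 20% mitochondrial UMIs were kept, assigned to hashtags, and clustered without the 10 members (scanpy 1.11.5). Classes were named from marker lists, and class names that carry Cxcr6, Gzmk, Gzma, Gzmc, Mgl2, Cd209a, Klra6 or Il17a were given after the clusters were seen. Scrublet called 2 and 3 cells, so it did not work here and doublets were kept, and leaving out the top 5% of scores was an alternative. UMIs were summed per replicate and class (at least 10 cells). The sums were tested with edgeR 4.0.16 (quasi-likelihood, total-UMI scaling, at least 30 UMIs per gene, Benjamini-Hochberg over all genes of the class, threshold 0.05). DESeq2 1.42.0, TMM, other filters, depths, hashtag calls and resolution, and omission of each replicate were alternatives. Levels of a library carry exact Poisson intervals (95%), shares of cells exact binomial ones, and the limit for a count of 0 is 3 counts. On simulated data of the regulatory T-cell-like class (7141 genes) 22 of 100 genes changed by a log2 fold of 1 and 74 of 100 changed by 2 were recovered, and in all T-cell-like cells (9984 genes) 58 and 93 of 100. Unchanged genes called were 3 and 6. Each gene was drawn with the spread typical of its level, not its own spread, so recovery in the real data may be lower.

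The text names all 10 members, the genes of related lists past the threshold, and the 3 genes most alike to each member. Members and lists were chosen with earlier results of these data known. Coordinates are from GENCODE for GRCm38, the build of mm10, and promoters from RefSeq.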

Additional observations from a re-analysis of the deposited data

Results flagged for a closer look

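Among 382 combinations of a member and a pair of classes in which it was fitted, 6 (4 members) had every WT replicate above every EV replicate in 1 class and below in the other. The same count was not made for all genes, so the 6 are not a result about the members. Over all genes, replicates did not overlap in 20.8% of gene and class pairs, and in 38.7% of genes in cycling T-cell-like cells. The 6 were chosen for their opposite directions and then tested with an interaction term in edgeR's quasi-likelihood test with the replicate as a block. A small unadjusted p therefore carries no weight, and between 4.35% and 5.33% of all genes had one below 0.05 in those fits. None of the 6 had an adjusted p below 0.05. The difference in log2 fold change (WT against EV) of Pdcd1 between cycling and Gzmk CD8 T-cell-like cells was -1.75 (adjusted p = 0.535), and that of Havcr2 between cDC1-like and non-classical monocyte-like cells was -1.55 (adjusted p = 0.202). For Ctla4, Gzma NK-cell-like cells differed from cycling T-cell-like cells by -0.82, and cDC1-like cells, in which T-cell markers were also lower in WT, by -2.91 (adjusted p = 1 for both). For Cd274, Arg1 Nos2 monocyte-macrophage-like cells differed from Cxcr6 CD8 T-cell-like cells by -1.83 (adjusted p = 0.113) and regulatory T-cell-like cells by -2.19 (adjusted p = 0.355). Of the EV and WT replicates, 2 or 3 per group entered each of these fits.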

How the results depend on the processing

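The count of 1 member called over 16 classes became 0 with hashtags assigned by centred log counts, 0 with at least 100 UMIs, 0 with each cell weighed the same, 4 with no gene filter and 2 with DESeq2, and ran from 0 to 1 when replicates were omitted. The count of 1 in pooled classes became 2 with no filter and 0 with equal weights, and ran from 0 to 1 (0 without EV h1 or h7 or any WT replicate). The 3 related genes became 45 with no filter and 5 with DESeq2, and ran from 0 to 10. Lag3 in regulatory T-cell-like cells was -1.95 (adjusted p = 0.0505), -2.06 (0.0705) and -1.99 (0.462) with centred log hashtags, 100 UMIs and equal weights, and -2.67 to -1.69 with a replicate omitted. Lag3 in all T cells was -0.30 (0.534) with equal weights, -0.079 without the regulatory class and -0.97 to -0.69 with a replicate omitted. Cd274 in cDC1-like cells (-1.25) was -1.80 without EV h8 and turned to 0.064 without EV h1. At resolution 2 the class of the highest Ctla4 held only its Foxp3 cluster, at 3735 CPM. Without thinning 12 shares rather than 5 reached the smallest p. Counts of calls under a setting stand here without the share of all genes called under it. They are therefore not a result about the members or the lists. The cause was not tested where the setting itself does not show it. Over the 86 pairs, 85 kept their sign with TMM, 82 with DESeq2, 66 with equal weights and 76 with centred log hashtags. At resolution 2 the regulatory class could not be fitted. No paired analysis was possible because the groups share no replicate numbers. Precision is limited by small numbers of cells per replicate and class and by the depth gap between libraries.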
